A study of Homo sapiens with 16 samples.

Results

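Alpha and beta tubulin are the proteins that pair into the dimers from which microtubules are built, and human cells carry several genes for each. The 10 genes followed here were read in HepG2, a human hepatoma cell line that makes plasma proteins and lipoproteins: the alpha tubulin genes TUBA1A, TUBA1B, TUBA1C and TUBA4A, and the beta tubulin genes TUBB, TUBB2A, TUBB2B, TUBB3, TUBB4B and TUBB6. They are 10 of the 11963 genes that a probe set with 1 symbol names on the array, and they were read through every probe set whose annotated symbol is one of them, 20 of the 22283. The set was assembled around TUBB2A, whose signal differed between the viruses in opposite directions at the 2 times, so that pattern of TUBB2A chose the members and is given below as a description with no test.

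Cells had been transduced with a recombinant adenovirus carrying GPI-PLD, a phospholipase D that cuts the glycosylphosphatidylinositol anchor of cell surface proteins, or with an adenovirus carrying LacZ, whose product beta-galactosidase served as the control. They were cultured for 6 or 12 h, and 10 µg of total RNA was assayed on each Affymetrix array. The 4 groups were GPI-PLD 12 h, LacZ 12 h, GPI-PLD 6 h and LacZ 6 h, with 4 arrays each, and all 16 arrays came from virus-transduced cells. The labels do not tie the 4 arrays of each group to separate cultures, and the spread behind each p-value may therefore be technical. The promoter of the vectors and the virus dose are not given in the sources used here, and no untransduced cells were analysed here.

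The microtubule network of a liver cell serves as the track along which secretory vesicles travel, and in dividing cells the same dimers form the mitotic spindle. Tubulin messenger RNAs are known for autoregulation: an excess of free dimer speeds the decay of tubulin messenger RNA that is being translated, with TTC5 recognising the start of the new tubulin chain. The genes also differ in where they are used, since TUBA1B, TUBA1C, TUBB and TUBB4B are broadly expressed whereas TUBA1A, TUBB2B and TUBB3 are known best from neurons.

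The arrays carried the signals of a liver cell line. All 9 hepatocyte and HepG2 markers on the array passed the filter on low signal, at the 92.4th percentile of probe sets (TTR) or above, with albumin (ALB) at the 99.9th. Of the leukocyte markers 1 of 4 passed (CD3E, mean signal 434), while CD14 (65.3) was among those that did not. Of the endothelial and fibroblast markers 3 of 6 passed, COL1A1 (774), COL1A2 (367) and PECAM1 (286), and CDH5 (20.2) did not. The mean signal of COL1A1 stood above those of TUBA4A (753) and TUBB2B (603). Whether signals of this size mean expression was not tested. The summed signal of the 6 endothelial and fibroblast markers ran from 1509 to 2017 in GPI-PLD 12 h arrays, 1472 to 1721 in LacZ 12 h, 1201 to 1614 in GPI-PLD 6 h and 1336 to 2073 in LacZ 6 h, and that of the 4 leukocyte markers from 256 to 1090 in GPI-PLD 12 h, 657 to 698 in LacZ 12 h, 540 to 780 in GPI-PLD 6 h and 542 to 895 in LacZ 6 h. GPLD1, the human gene for GPI-PLD, had 5 probe sets, of which 2 passed the filter; their log2 differences between GPI-PLD and LacZ arrays ran from -0.33 to 0.60 over all 5 sets and both times, and none was called. Whether those probes lie in the sequence carried by the vector was not tested, so the groups are named by their labels. The mean correlation of an array with the rest of its group was 0.942 to 0.945 in GPI-PLD 12 h, and 0.954 to 0.966 elsewhere.

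Several of the 20 probe sets may read more than 1 tubulin. A single symbol belonged to 19 sets, and 209372_x_at carried TUBB2B and TUBB2A together. In Affymetrix naming, a set ending in _x_at holds probes that also match other transcripts and one ending in _s_at is shared by several transcripts, and 15 sets ended in _x_at and 1 in _s_at. These were the 5 sets of TUBA1B (211058, 211072, 213646, 212639 and 201090), both sets of TUBA1C (209251 and 211750), of TUBB3 (213476 and 202154) and of TUBB4B (213726 and 208977), 2 of the 3 sets of TUBB (211714 and 209026), the set of TUBB2B (214023), the shared set, and the _s_at set of TUBA1A (209118). Only 4 sets ended in plain _at: 204141_at of TUBB2A, 212320_at of TUBB, 212242_at of TUBA4A and 209191_at of TUBB6. The probe sequences were not used here, so cross-reading between family members could not be measured. Each gene was read by its brightest probe set with 1 symbol, and all 10 genes passed the filter, at the 63.4th (TUBB2B) to 99.4th (TUBA1B) percentile of probe sets.

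TUBB2A lies at chr6:3153666-3157544 of GRCh38.p14, 66.7 kb from its near relative TUBB2B at chr6:3224277-3227653. TUBB lies at chr6:30720352-30725422, TUBB4B at chr9:137241287-137243707, and TUBA1B (chr12:49127782-49131395), TUBA1A (chr12:49184795-49189080) and TUBA1C (chr12:49227926-49274600) lie close together on chromosome 12 with gaps of 53.4 and 38.8 kb. The RefSeq promoter windows of the 4 beta tubulin genes on which the results turn are shown, 250 bases before to 50 after each start. They place TUBB2A, around which the members were chosen, beside the genes called with time. A link between these windows and the signals was not tested. All are written 5′ to 3′ on the strand of the gene, and capitals mark every match on either strand to CCAAT, to the GC box GGGCGG, to the TATA box letters TATAAA and to the palindrome TGACGTCA, known as the cyclic AMP response element. A match on the other strand is seen as its reverse complement. No matches overlap in these 5 windows.
TUBB2A, chr6:3157495-3157794, minus strand: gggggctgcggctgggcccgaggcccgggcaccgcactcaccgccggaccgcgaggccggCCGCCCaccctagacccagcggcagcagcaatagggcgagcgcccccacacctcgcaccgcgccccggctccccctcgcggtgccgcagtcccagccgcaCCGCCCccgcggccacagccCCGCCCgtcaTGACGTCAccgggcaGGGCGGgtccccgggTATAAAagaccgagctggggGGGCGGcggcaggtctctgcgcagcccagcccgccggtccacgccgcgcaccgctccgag
TUBB2B, chr6:3227604-3227903, minus strand: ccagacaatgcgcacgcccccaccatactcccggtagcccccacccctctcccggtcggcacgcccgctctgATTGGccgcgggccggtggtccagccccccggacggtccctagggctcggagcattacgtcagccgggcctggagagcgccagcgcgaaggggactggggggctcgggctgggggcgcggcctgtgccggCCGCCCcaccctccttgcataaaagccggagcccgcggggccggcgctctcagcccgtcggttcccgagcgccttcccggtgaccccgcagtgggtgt
TUBB, first start, chr6:30720102-30720401, plus strand: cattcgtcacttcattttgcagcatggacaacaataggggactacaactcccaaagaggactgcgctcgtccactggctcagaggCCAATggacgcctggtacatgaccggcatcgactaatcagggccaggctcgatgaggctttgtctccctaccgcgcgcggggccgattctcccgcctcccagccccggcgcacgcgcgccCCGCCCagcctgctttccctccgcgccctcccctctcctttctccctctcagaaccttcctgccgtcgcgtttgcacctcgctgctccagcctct
TUBB, second start, chr6:30721388-30721687, plus strand: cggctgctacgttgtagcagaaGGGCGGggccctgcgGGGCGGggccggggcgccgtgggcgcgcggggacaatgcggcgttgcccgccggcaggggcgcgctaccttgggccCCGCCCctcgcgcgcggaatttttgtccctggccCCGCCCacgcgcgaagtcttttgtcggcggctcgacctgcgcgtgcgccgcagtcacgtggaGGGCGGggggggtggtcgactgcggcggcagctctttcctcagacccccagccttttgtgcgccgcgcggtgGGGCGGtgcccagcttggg
TUBB4B, chr9:137241037-137241336, plus strand: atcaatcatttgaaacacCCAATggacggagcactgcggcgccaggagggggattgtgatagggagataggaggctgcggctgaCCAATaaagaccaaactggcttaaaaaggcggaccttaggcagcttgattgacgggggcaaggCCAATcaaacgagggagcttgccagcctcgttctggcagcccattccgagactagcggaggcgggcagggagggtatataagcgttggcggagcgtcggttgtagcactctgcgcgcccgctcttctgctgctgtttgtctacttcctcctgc

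The TUBB2A window held TATAAA 30 bases before the start, TGACGTCA 60 bases before it and 5 matches to GGGCGG, with a GC content of 79.0%. It was the only one of 15 tubulin windows (10 genes, some with several starts) with TATAAA, which 11.5% of 35116 RefSeq windows hold, and the only one with TGACGTCA, which 1.8% hold. The TUBB2B window had neither of these, 1 CCAAT match 178 bases before the start and 1 GC box 48 bases before it. TUBB4B had 3 CCAAT matches and no GC box, and the second TUBB window had 6 GC boxes and no CCAAT. Over the 15 tubulin windows, CCAAT was found in 9 (34.6% of all windows) and GGGCGG in 9 (45.0%). Aligned end to end, the TUBB2A and TUBB2B windows shared 158 of 300 bases (52.7%), within the 46.3% to 56.3% that the TUBB2A window shared with the other tubulin windows. A match describes the exact letters only, and near forms such as TATATAA, which the TUBB4B window holds, were not counted.

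TUBB2A, a class II beta tubulin, was lower in GPI-PLD than in LacZ arrays at 12 h and higher in GPI-PLD than in LacZ arrays at 6 h. On 204141_at the signals were 2273.7, 2362.1, 2021.5 and 3008.6 in the GPI-PLD 12 h arrays, against 3298.8, 3903.9, 3267.7 and 3354.0 in the LacZ 12 h arrays. At 6 h they were 3518.9, 3245.6, 3407.3 and 3725.1 in the GPI-PLD arrays, against 2609.4, 2807.4, 2720.1 and 2536.9 in the LacZ arrays. Every GPI-PLD array lay below every LacZ array at 12 h and above every LacZ array at 6 h, so neither pair of groups overlapped. Among all 8102 genes tested, arrays of the 2 viruses did not overlap for 3.99% at 12 h and 3.02% at 6 h, and nothing is read from this for TUBB2A, which was chosen on these contrasts.

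The group means of TUBB2A were 2416 ± 420 in GPI-PLD 12 h, 3456 ± 301 in LacZ 12 h, 3474 ± 201 in GPI-PLD 6 h and 2668 ± 119 in LacZ 6 h (SD, n = 4 each). Ordered by level, GPI-PLD 6 h and LacZ 12 h stood at the top with overlapping arrays, and LacZ 6 h and GPI-PLD 12 h at the bottom, also with overlapping arrays. On the log2(signal + 63) scale, which understates changes of low signals, the GPI-PLD minus LacZ difference was -0.52 ± 0.11 at 12 h (SE, 1.43-fold) and 0.37 ± 0.11 at 6 h (1.29-fold). The difference between these 2 was -0.89 ± 0.15 (12 h minus 6 h). Seen over time, TUBB2A at 12 h minus 6 h was -0.53 ± 0.11 under GPI-PLD and 0.36 ± 0.11 under LacZ. These 5 values describe the pattern that chose the gene and carry no test. They share their arrays, since the 4 single differences each set 2 of the same 4 groups against each other and the -0.89 uses all 4.

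The averages of TUBB2A are built from the same group means, and values of opposite sign average to a small one, so they too are given with no test. GPI-PLD minus LacZ averaged over both times was -0.07 ± 0.07, and 12 h minus 6 h averaged over both viruses was -0.08 ± 0.07. In bulk RNA a change in the share of cells that express a gene and a change in RNA per cell cannot be told apart.

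**Figure D1:**
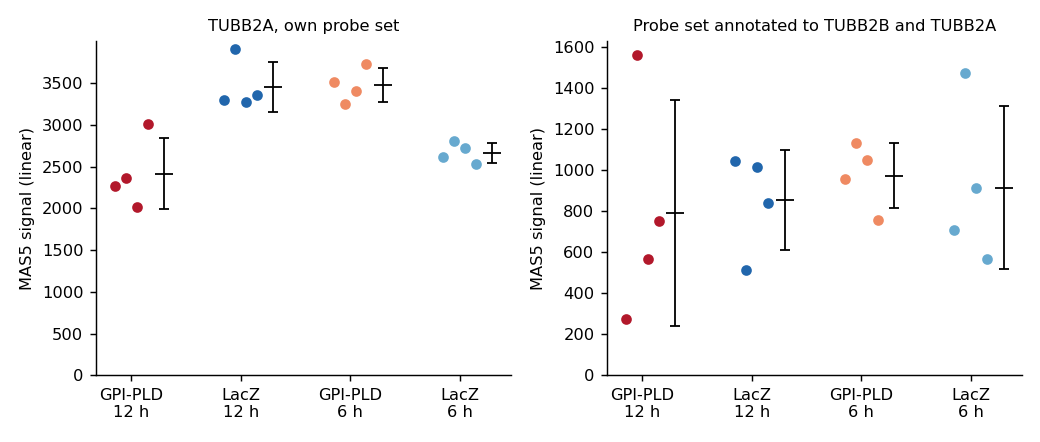
MAS5 signal (linear) of each array for TUBB2A on its own probe set (left) and on the set annotated to TUBB2B and TUBB2A (right), in GPI-PLD 12 h, LacZ 12 h, GPI-PLD 6 h and LacZ 6 h cells; points are arrays and bars show mean ± SD (n = 4). On its own set TUBB2A averages 2416 in GPI-PLD 12 h against 3456 in LacZ 12 h, and 3474 in GPI-PLD 6 h against 2668 in LacZ 6 h, whereas on the shared set all groups overlap.

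The shared probe set did not separate the groups. On 209372_x_at the GPI-PLD 12 h arrays read 275.9, 1559.6, 566.3 and 752.3, against 1044.0, 512.0, 1013.0 and 839.7 in LacZ 12 h. At 6 h the GPI-PLD arrays read 956.3, 1129.3, 1047.4 and 758.6, against 707.7, 1470.7, 911.3 and 565.4 in LacZ. Both pairs overlapped, and the arrays of GPI-PLD 12 h spread the widest of the 4 groups. The log2 difference between viruses was -0.28 ± 0.34 at 12 h and 0.15 ± 0.34 at 6 h, and the 2 lay -0.44 ± 0.48 apart, with a 95% interval of -1.44 to 0.57. Over the 16 arrays the shared set and 204141_at had a Pearson r of 0.24, given as a description of points that share arrays.

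TUBB2B, the class II beta tubulin known from cortical neurons, rose with time on its own probe set, 214023_x_at, and not on the set that it shares with TUBB2A. Its own set read 740.0, 949.2, 752.4 and 757.2 in GPI-PLD 12 h, against 394.2, 553.9, 418.8 and 456.6 in GPI-PLD 6 h. Under LacZ it read 590.2, 834.5, 662.1 and 739.7 at 12 h, against 421.5, 546.6, 381.2 and 444.2 at 6 h. All 8 arrays of 12 h lay above all 8 of 6 h, which held for 2.55% of the genes tested. The 12 h minus 6 h difference was 0.74 ± 0.17 under GPI-PLD (1.67-fold, limma adjusted p = 0.00621), 0.59 ± 0.17 under LacZ (adjusted p = 0.0358) and 0.66 ± 0.12 averaged over both viruses (1.58-fold, adjusted p = 0.000357). The LacZ call was lost in 10 of 26 alternatives, among them each of 6 settings that left out 1 LacZ array (LacZ 6 h 1, 3 or 4, LacZ 12 h 2, 3 or 4), with an adjusted p of up to 0.130. The GPI-PLD and averaged calls were kept in all 26. The shared set 209372_x_at went the other way in sign, at -0.49 ± 0.34 under GPI-PLD, -0.06 ± 0.34 under LacZ and -0.28 ± 0.24 averaged over both viruses (95% interval -0.78 to 0.23, no test, since it also names TUBB2A). Its Pearson r with 214023_x_at over the 16 arrays was -0.13. The rise of TUBB2B therefore rests on 1 set, whose _x_at ending marks probes that also match other transcripts. The mean signal of that set, 603, lay below that of COL1A1 (774), a marker of other cell types.

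TUBB2B was not called between the viruses at either time. Its GPI-PLD mean was 800 ± 99.9 against 707 ± 105 under LacZ at 12 h, and 456 ± 70.2 against 448 ± 70.5 at 6 h (SD, n = 4 each). The difference between viruses was 0.17 ± 0.17 at 12 h (adjusted p = 0.854) and 0.02 ± 0.17 at 6 h (adjusted p = 0.998), with 95% intervals of -0.18 to 0.52 and -0.33 to 0.37.

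TUBB, the constitutive class I beta tubulin, fell with time. Its brightest set 211714_x_at read 35406.6, 37528.8, 36328.8 and 35166.5 in GPI-PLD 12 h, against 39424.8, 41646.7, 37924.3 and 40284.3 in GPI-PLD 6 h. Under LacZ it read 27451.9, 30557.8, 31377.2 and 33305.4 at 12 h, against 32917.9, 38771.3, 43839.1 and 37189.0 at 6 h. The 12 h arrays lay below the 6 h arrays without overlap under GPI-PLD, as did those of 7.86% of all genes tested, whereas under LacZ the highest 12 h array stood above the lowest 6 h array. The averaged time difference was -0.23 ± 0.05 (1.17-fold, adjusted p = 0.00524), a call kept in 26 of 26 alternatives. Within LacZ it was -0.31 ± 0.08 (adjusted p = 0.0137), and this call was lost without LacZ 6 h array 3 or LacZ 12 h array 1 (adjusted p of up to 0.0647) and with eBayes without trend and robust (adjusted p = 0.0762). Within GPI-PLD it was -0.14 ± 0.08 (adjusted p = 0.290).

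The plain _at set of TUBB, 212320_at, moved in the same direction. It read 11607.1, 10175.3, 12028.1 and 10839.6 in GPI-PLD 12 h, against 13655.8, 12059.0, 13489.2 and 13084.3 in GPI-PLD 6 h. It read 10717.1, 9839.5, 10889.3 and 9425.0 in LacZ 12 h, against 12851.9, 13178.5, 11812.7 and 13637.2 in LacZ 6 h. Neither virus showed an overlap between 12 h and 6 h arrays on this set. In this direction that held for 7.86% of all genes tested under GPI-PLD and for 6.22% under LacZ. In the fit of all 22215 probe sets its averaged difference was -0.28 ± 0.05 (adjusted p = 0.00186), with -0.33 ± 0.08 under LacZ (adjusted p = 0.0183). The third set, 209026_x_at, gave -0.18 ± 0.06 averaged over both viruses (adjusted p = 0.0956).

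TUBB4B, a broadly expressed class IV beta tubulin, also fell with time, though the call moved with the processing. On 213726_x_at it averaged 16029 ± 1586 in GPI-PLD 12 h against 18866 ± 918 in GPI-PLD 6 h, and 14771 ± 892 in LacZ 12 h against 16652 ± 2008 in LacZ 6 h (SD, n = 4 each). The averaged difference was -0.20 ± 0.06 (1.15-fold, adjusted p = 0.0273), and the call was lost in 11 of 26 alternatives, with an adjusted p of up to 0.0842. The arrays whose removal ended it were LacZ 6 h 2 and 3, GPI-PLD 6 h 2 and 3, LacZ 12 h 1, 2 and 3, and GPI-PLD 12 h 4. On 208977_x_at the signals were 13686.0, 15831.1, 14245.5 and 16023.4 in GPI-PLD 12 h, against 17607.7, 18085.2, 19930.8 and 19414.9 in GPI-PLD 6 h. These groups did not overlap, as held in this direction for 7.86% of all genes tested. Under LacZ this set read 14045.1, 14418.5, 16476.8 and 14619.8 at 12 h, against 15981.6, 18391.2, 19315.7 and 15438.0 at 6 h, with overlap. In the fit of all probe sets it gave -0.33 ± 0.08 under GPI-PLD (adjusted p = 0.0275) and -0.27 ± 0.06 averaged over both viruses (adjusted p = 0.00534).

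**Figure D2:**
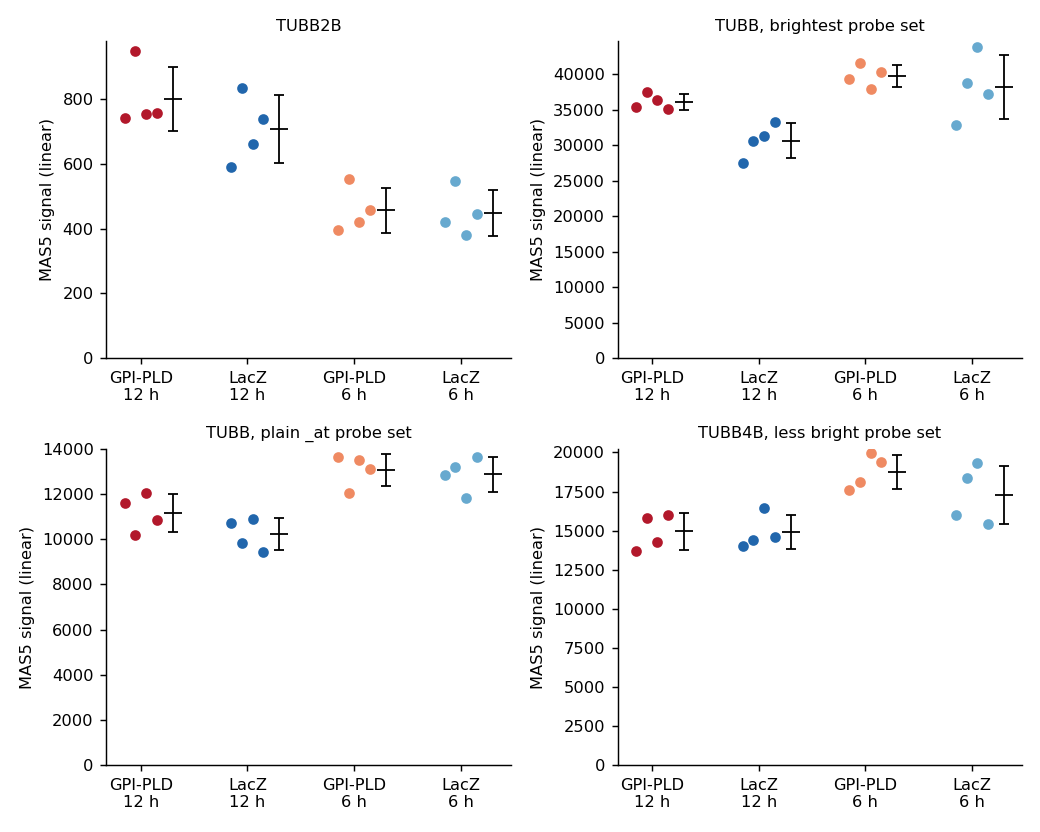
MAS5 signal (linear) of each array for TUBB2B, the brightest and the plain _at set of TUBB, and the other set of TUBB4B (208977_x_at), in GPI-PLD 12 h, LacZ 12 h, GPI-PLD 6 h and LacZ 6 h cells; points are arrays and bars show mean ± SD (n = 4). TUBB2B averages 800 and 707 at 12 h against 456 and 448 at 6 h (GPI-PLD, then LacZ, at each time), and TUBB on its plain _at set 11163 and 10218 at 12 h against 13072 and 12870 at 6 h.

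Of the 9 tubulin genes other than TUBB2A, 1 was called higher (TUBB2B) and 2 lower (TUBB and TUBB4B) at 12 h than at 6 h averaged over both viruses, where 16.1% of the 8102 genes tested were called, 7.79% higher and 8.33% lower. Counted without regard to a call, 2 of the 9 were higher and 7 lower, with a median log2 difference of -0.10, beside 0.01 over all genes. Under GPI-PLD 1 of 9 was called, TUBB2B, which was higher at 12 h, beside 9.68% of all genes (4.6% higher and 5.07% lower). Under LacZ 2 of 9 were called, TUBB2B higher and TUBB lower, beside 6.89% (3.64% higher and 3.25% lower). By probe set, 16 of the 18 sets that do not name TUBB2A were lower at 12 h averaged over both viruses and 2 were higher, with a median of -0.16 beside 0.03 over all probe sets. Of the 18, 4 were called lower and 1 higher, where 7.09% of all probe sets were called, 3.46% lower and 3.63% higher. Under GPI-PLD alone 3.8% of all probe sets were called, and under LacZ alone 2.73%. Sets of 1 gene share their target, so these counts do not rest on independent members.

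No alpha tubulin gene was called with time on its brightest set. TUBA1B, the most widely used alpha tubulin, averaged 41562 in GPI-PLD 12 h against 43725 in GPI-PLD 6 h, and 37696 in LacZ 12 h against 43147 in LacZ 6 h, on 211058_x_at. Its averaged time difference was -0.13 ± 0.06 (adjusted p = 0.149), whereas the mean of its 5 sets gave -0.21 and was called (adjusted p = 0.0160), the 1 of 26 alternatives that did so (adjusted p of up to 0.278). The 5 sets of TUBA1B ran from -0.25 to -0.13, and the brightest set, which was used for the gene, had the smallest fall. Of the 5 sets 1 was called, 212639_x_at (-0.24 ± 0.05, adjusted p = 0.00541). TUBA1C, a close relative of TUBA1B, gave -0.12 ± 0.07 (adjusted p = 0.268) on its brighter set and -0.03 ± 0.08 on the other. TUBA1A, the alpha tubulin of migrating neurons, gave -0.03 ± 0.10 (adjusted p = 0.878), and TUBA4A gave -0.10 ± 0.13 (adjusted p = 0.672). The arrays of TUBA1A ran from 1027 to 1210 in GPI-PLD 12 h, 1183 to 1458 in LacZ 12 h, 953 to 1620 in GPI-PLD 6 h and 1150 to 1325 in LacZ 6 h, and all 4 ranges overlapped.

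The remaining beta tubulins did not pass the test with time either. TUBB3, the class III beta tubulin used as a marker of neurons, gave -0.07 ± 0.09 averaged over both viruses (adjusted p = 0.641). TUBB6, a class V beta tubulin, gave 0.05 ± 0.12 (adjusted p = 0.836), with arrays from 1633 to 2310 in GPI-PLD 12 h, 1512 to 1871 in LacZ 12 h, 1580 to 2049 in GPI-PLD 6 h and 1042 to 2218 in LacZ 6 h. Of the 9 genes other than TUBB2A, each on its brightest set, 6 were not called in any of the 7 contrasts.

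**Figure D3:**
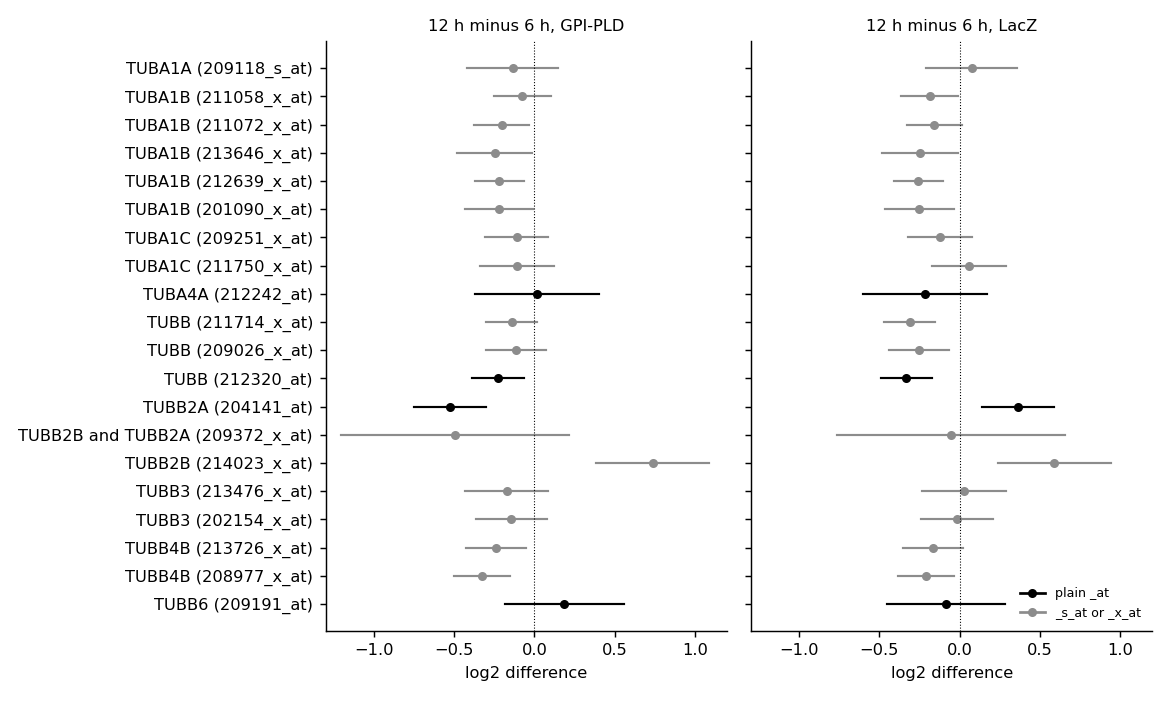
Log2 difference at 12 h minus 6 h of each of the 20 tubulin probe sets under GPI-PLD (left) and LacZ (right), from the fit of all probe sets; points are estimates, bars are 95% intervals, black marks plain _at sets and grey marks _s_at or _x_at sets. TUBB2A stands at -0.53 under GPI-PLD and 0.36 under LacZ, TUBB2B at 0.74 under GPI-PLD and 0.59 under LacZ, and most other sets lie below 0 in both panels.

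Probe sets of 1 gene agreed to different degrees. Over the 16 arrays the Pearson r between sets of 1 gene, as a description of points that share arrays, was 0.59 to 0.91 for the 5 sets of TUBA1B, 0.33 to 0.92 for the 3 of TUBB and 0.61 for the pair of TUBB4B. It was 0.30 for the pair of TUBA1C and -0.12 for the pair of TUBB3. Sets of different genes could follow each other as closely: 212639_x_at of TUBA1B and 208977_x_at of TUBB4B had an r of 0.90, and 211714_x_at of TUBB and 213726_x_at of TUBB4B 0.83. Group means were not removed from these r, and 212639_x_at and 208977_x_at both fell with time (-0.24 ± 0.05 and -0.27 ± 0.06 averaged over both viruses). How far shared probes or a shared change with time enter these values was not tested.

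Between the viruses, none of the 9 other tubulin genes was called at either time. None of the 8102 genes (0%) was called at 12 h or at 6 h, although 7.21% at 12 h and 4.64% at 6 h had an unadjusted p under 0.05, and eBayes without trend and robust called 0 at 12 h and 2 at 6 h. At 12 h the 9 other tubulins ran from -0.21 to 0.30 with a median of 0.14 beside 0.01 over all genes, 7 of them higher under GPI-PLD and 2 lower. At 6 h they ran from -0.02 to 0.19 with a median of 0.03, again 7 higher and 2 lower. Averaged over both times 0 of the 9 were called, as were 0 of all 8102 genes, of which 4.2% had an unadjusted p under 0.05. At either single time the widest 95% interval among them reached 0.38 to either side of its estimate, so differences of that size were not detectable for every member. The intervals are not adjusted for the number of genes tested, so larger differences could also go uncalled.

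TUBB had the smallest p of these at 12 h. On 211714_x_at its GPI-PLD 12 h arrays, listed above, all lay above its LacZ 12 h arrays, with means of 36108 ± 1072 under GPI-PLD and 30673 ± 2437 under LacZ (SD, n = 4 each). The difference was 0.24 ± 0.08 with an adjusted p of 0.497, and 2.14% of all genes had GPI-PLD 12 h arrays entirely above LacZ 12 h arrays. At 6 h the difference was 0.07 ± 0.08, and the plain _at set 212320_at gave 0.13 ± 0.08 at 12 h and 0.02 ± 0.08 at 6 h. TUBA1A stood at -0.21 ± 0.13, TUBA4A at 0.30 ± 0.18 and TUBB6 at 0.25 ± 0.17 at 12 h, with adjusted p-values of 0.751, 0.744 and 0.773. TUBB4B stood at 0.11 ± 0.09 at 12 h and 0.19 ± 0.09 at 6 h, and neither value was called (adjusted p = 0.804 at 12 h and 0.998 at 6 h).

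In the difference of the virus effect between the times, 0.0123% of the 8102 genes were called and 7.53% had an unadjusted p under 0.05. Changes of processing called 0 genes in 6 alternatives, and runs with 1 array left out called 0 to 3. Nothing is read from these counts for TUBB2A, which this contrast chose. The 9 other tubulins ran from -0.21 (TUBA1A) to 0.27 (TUBB6) with a median of 0.11, none was called, and their smallest adjusted p was 0.758 (TUBB). For TUBB2B, the nearest relative, the value was 0.15 ± 0.24 with a 95% interval of -0.35 to 0.64. The interval of TUBA1A ran from -0.60 to 0.18 and that of TUBB3 from -0.56 to 0.16.

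**Figure D4:**
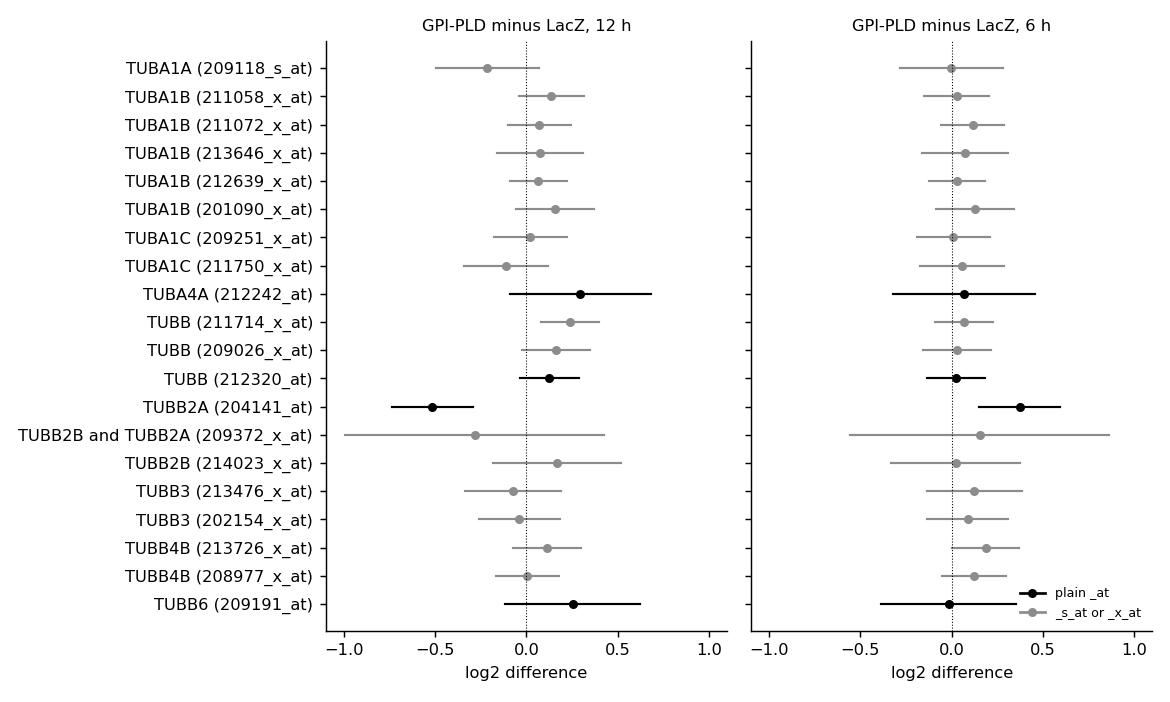
Log2 difference of GPI-PLD minus LacZ for each of the 20 tubulin probe sets at 12 h (left) and 6 h (right), from the fit of all probe sets; points are estimates, bars are 95% intervals, black marks plain _at sets and grey marks _s_at or _x_at sets. TUBB2A lies at -0.52 at 12 h and 0.37 at 6 h, and the TUBB set with the smallest p at 0.24 at 12 h and 0.07 at 6 h.

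Genes that act on tubulin were read from lists by role in the averaged 12 h minus 6 h contrast, where 7.79% of all genes tested were called higher and 8.33% lower, and 52.8% were higher without regard to a call. Of the lists, 0 of 2 tested genes of the other alpha and beta tubulins were called (TUBB4A 0.14 ± 0.26, TUBA4B -0.14 ± 0.26). TUBD1, the delta tubulin of centrioles and the only delta or epsilon gene on the array, fell by 0.56 ± 0.10 (adjusted p = 0.000481). Of the gamma tubulin ring complex, which nucleates microtubules, 0 of 6 were called, with TUBG1 at -0.22 ± 0.08 (adjusted p = 0.0785) and TUBGCP4 at 0.03 ± 0.08. None of the 6 tested folding cofactors, which join the alpha to the beta chain, was called either, with ARL2 at -0.26 ± 0.11 (adjusted p = 0.124).

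Among the chaperones that receive new tubulin chains, 1 of 7 CCT and 2 of 5 prefoldin subunits were called, all lower, beside 8.33% of all genes called lower. The CCT count is near that background. All 7 tested subunits of the CCT chaperonin, which folds actin and tubulin, were lower at 12 h, with a median of -0.10, and the called one was CCT7 (-0.19 ± 0.06, adjusted p = 0.0194). CCT7 averaged 9917 in GPI-PLD 12 h against 11184 in GPI-PLD 6 h, and 9405 in LacZ 12 h against 10868 in LacZ 6 h. Of the 5 prefoldin subunits, which hand unfolded chains to CCT, 1 was higher and 4 lower, and the called ones were PFDN1 (-0.34 ± 0.10, adjusted p = 0.0276) and VBP1 (-0.20 ± 0.06, adjusted p = 0.0373). Of 5 listed factors of tubulin messenger RNA autoregulation 3 were on the array and tested, and TTC5 was not among these 3. CNOT1, the scaffold of the CCR4-NOT deadenylase complex, was called higher (0.20 ± 0.07, adjusted p = 0.0495), beside 7.79% of all genes called higher. SCAPER stood at 0.24 ± 0.13 (adjusted p = 0.240) and CNOT7 at -0.008 ± 0.076 (adjusted p = 0.964).

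Of 13 tested microtubule-associated and plus-end proteins, which bind microtubules, 2 were called higher and 1 lower, near the 16.1% of all genes called. MAP1B, a microtubule-associated protein known from growing axons, averaged 2495 ± 262 in GPI-PLD 12 h against 1466 ± 185 in GPI-PLD 6 h, and 2305 ± 132 in LacZ 12 h against 1336 ± 234 in LacZ 6 h (SD, n = 4 each). Its averaged difference was 0.76 ± 0.09 (1.69-fold, adjusted p = 1.12e-06). CLIP1, which tracks growing plus ends, rose by 0.37 ± 0.13 (adjusted p = 0.0494, just under the threshold). MAPRE1, the end-binding protein EB1, fell by 0.20 ± 0.05 (adjusted p = 0.00628). Calls of single genes from the lists were not followed through the alternative settings. Of 5 severing and depolymerising proteins 1 was called higher and 2 lower, against the same background: KIF2A rose (0.30 ± 0.08, adjusted p = 0.00751), and KIF2C (-0.40 ± 0.08, adjusted p = 0.00158) and KIF18A (-0.45 ± 0.15, adjusted p = 0.0490) fell; the last 2 are kinesins of the mitotic spindle. None of 8 tested tubulin modifying enzymes was called, with the acetyltransferase ATAT1 at 0.34 ± 0.16 (adjusted p = 0.163).

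Of 14 motor subunits, 7 were higher and 7 lower without regard to a call. The 3 that were called, beside 16.1% of all genes, are light chains of dynein, and all 3 were lower at 12 h. DYNLL1 averaged 14962 ± 1129 in GPI-PLD 12 h against 25436 ± 1975 in GPI-PLD 6 h, and 18256 ± 865 in LacZ 12 h against 21635 ± 2830 in LacZ 6 h (SD, n = 4 each). Its averaged difference was -0.50 ± 0.06 (adjusted p = 2.95e-06), with -0.76 ± 0.09 under GPI-PLD (adjusted p = 2.09e-06) and -0.24 ± 0.09 under LacZ (adjusted p = 0.117). DYNLT1 fell by 0.23 ± 0.06 (adjusted p = 0.00669) and DYNLRB1 by 0.22 ± 0.06 (adjusted p = 0.0183). Of 9 actin and intermediate filament genes 0 were called, with CFL1 at -0.09 ± 0.05 and KRT18 at 0.11 ± 0.06, and the median of that list was 0.01.

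Mitotic spindle genes fell with time beside TUBB and TUBB4B. All 15 were lower at 12 h, with a median of -0.45, and 12 were called, beside 8.33% of all genes called lower. AURKA, a kinase of the spindle poles, averaged 4915 ± 697 in GPI-PLD 12 h against 9023 ± 929 in GPI-PLD 6 h, and 4501 ± 697 in LacZ 12 h against 9798 ± 1265 in LacZ 6 h (SD, n = 4 each), a difference of -0.99 ± 0.08 (adjusted p = 6.15e-09). CCNB1, the mitotic cyclin B1, fell by 0.67 ± 0.06 (adjusted p = 6.00e-08) and KIF20A, a kinesin of late mitosis, by 0.57 ± 0.08 (adjusted p = 1.53e-05). Their part in the tubulin values was not tested. Among the markers of the cell line, 2 of 9 were called higher, SERPINA1 (0.18 ± 0.05, adjusted p = 0.0188) and GPC3 (0.27 ± 0.09, adjusted p = 0.0388), and 0 of 1 leukocyte and 0 of 3 endothelial and fibroblast markers were called. In the contrasts between viruses, and in the difference between them, 0 genes of any of the 16 lists were called.

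The genes closest to TUBB2A across the 16 arrays were picked by Pearson r of the log2 values over 8102 genes. The highest r, 0.78, was that of EIF3L, a part of the initiation factor eIF3, followed by the creatine synthesis enzyme GAMT (0.72), the isoprenoid enzyme GGPS1 (0.72), the polycomb protein RING1 (0.72), the acute phase protein ORM1 (0.72) and the ribosomal protein RPL27 (0.72). ORM1 has a near-identical copy, ORM2, that its probe set may also read. The lowest values belonged to the tRNA-modifying enzyme DUS2 (-0.84), the glycerol kinase GK2 (-0.80), the lysine-degrading enzyme GCDH (-0.79) and HDGFL3 (-0.77). The group means of GK2 ran from 146 to 324 and those of HDGFL3 from 175 to 354, close to the filter signal of 188. Within groups, once group means were removed, the r with TUBB2A was 0.33 for EIF3L, -0.67 for DUS2 and -0.77 for GK2. Points share arrays, and no p is given for values picked as extremes.

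EIF3L averaged 11434 in GPI-PLD 12 h against 16456 in LacZ 12 h, and 14784 in GPI-PLD 6 h against 12059 in LacZ 6 h. Its difference of the virus effect between times was -0.81 ± 0.15 (adjusted p = 0.0548), the smallest p among the genes other than TUBB2A. Next came ABAT, a GABA transaminase (-0.68 ± 0.16, adjusted p = 0.376), and TCEA1, a transcription elongation factor (0.46 ± 0.11, adjusted p = 0.376). DYNLL1 from the motor list stood at -0.53 ± 0.12 (adjusted p = 0.376). The other tubulins had an r with TUBB2A between -0.43 (TUBB6) and 0.38 (TUBB3), and TUBB3 ranked 655th among the other genes tested.

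**Figure D5:**
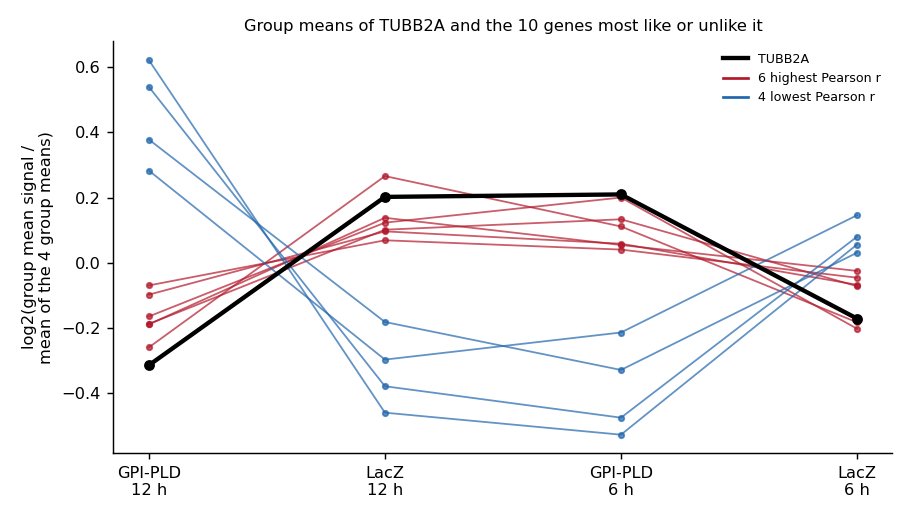
Group mean signal of TUBB2A (black), the 6 genes with the highest (red) and the 4 with the lowest (blue) Pearson r to it over 16 arrays, as log2 of the group mean over the mean of the 4 group means; groups run GPI-PLD 12 h, LacZ 12 h, GPI-PLD 6 h, LacZ 6 h and lines only join the points of 1 gene. TUBB2A and the red genes sit lower in GPI-PLD 12 h than in LacZ 12 h and higher in GPI-PLD 6 h than in LacZ 6 h, as the choice by r makes likely, and the blue genes the other way round.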

How the data were processed

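Total RNA of HepG2 cells was measured on 16 Affymetrix arrays, 4 per group. The authors deposited MAS5 signal values, a linear intensity per probe set, per the submitters' processing notes; scanner, scaling target and other steps: not given in the sources used here. Arrays were numbered in deposited order, since the labels number no replicates and name no batch. Of 22283 probe sets 68 controls were left out. Array medians ran from 304.5 to 377.6 and no rescaling was applied. The number of arrays limits the precision.

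Signals were analysed as log2(signal + 63), 63 being the 20th percentile of all signals. Each of 11963 genes was read by its brightest probe set with 1 symbol and tested if its mean reached the 40th percentile (signal 188), which left 8102 genes. Symbols come from the platform annotation: 19065 probe sets had 1 symbol, 1043 several and 2107 none; of these gene IDs 19053 matched RefSeq's gene table, and 0 symbols differed. One linear model per gene over the 4 groups was fitted in limma 3.58.1 (statmod 1.5.0, R 4.3.3), and eBayes used a mean-variance trend and robust shrinkage (residual degrees of freedom 12, prior 10.5 in the median). The 7 contrasts were GPI-PLD minus LacZ at 12 h, at 6 h and averaged, their difference, and 12 h minus 6 h under each virus and averaged. Calls required p under 0.05 after Benjamini-Hochberg adjustment over all genes of a contrast. Single probe sets came from a fit of all 22215. For TUBB2A no p is given in any contrast. Errors after log2 differences are standard errors. The steps were tested on simulated data. Promoter windows are RefSeq's (GRCh38.p14), scanned and aligned with Python 3.11.15, pandas 2.3.3 and biopython 1.88; plots used matplotlib 3.10.9.

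The members and the 16 gene lists (149 symbols, 126 on the array) were chosen with earlier results of these data known. Named genes were all members, and in each list the 3 with the smallest p for averaged time and the 2 for the difference contrast. The genes with the 6 highest and 4 lowest r to TUBB2A were also named. So were the 3 genes other than TUBB2A with the smallest p in the difference contrast. A few list genes chosen by these rules are not given in the text. Alternatives changed the scaling between arrays (quantile, 75th percentile), the pseudocount (none, 4 times larger), the filter (none, 60th percentile), the reading of a gene (mean of its sets, every set), the variance model (plain eBayes, weighted arrays) and the arrays used (the 8 compared, or 1 left out).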

Additional observations from a re-analysis of the deposited data

Results flagged for a closer look

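Within a group of 4 arrays, 5 of 80 groups of a tubulin probe set held an array far from the other 3 (Dixon's test at the 95% level, which chance passes in about 1 of 20 groups). TUBB2A read 3903.9 in LacZ 12 h array 2, against 3267.7 to 3354.0 in the other 3. TUBB2B read 949.2 in GPI-PLD 12 h array 2, against 740.0 to 757.2. On 213726_x_at TUBB4B read 13675 in GPI-PLD 12 h array 4, against 16500.5 to 17023.1, and 16104.7 in LacZ 12 h array 4, against 14229.2 to 14388.9. TUBB6 read 2049.4 in GPI-PLD 6 h array 1, against 1580.2 to 1644.3. The TUBB2A and TUBB2B values leave the separation of their groups as it is, since each outlying array lies farther from the other group than the rest of its own. Each therefore enlarges the stated difference. With single arrays left out, 12 h minus 6 h of TUBB2A under LacZ fell from 0.36 to as low as 0.30. That of TUBB2B under GPI-PLD fell from 0.74 to as low as 0.66.

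The GPI-PLD minus LacZ difference of TUBB2A was negative at 12 h and positive at 6 h, in every pair of arrays, and the 2 differed by -0.89 on the log2 scale. This contrast chose the gene, so the value has no independent test here.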

How the results depend on the processing

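No paired analysis was possible because the labels carry no replicate numbers. The values of TUBB2A kept their direction in every alternative run: with single arrays left out the difference of the virus effect ran from -0.996 to -0.810, and under the other alternatives from -0.908 to -0.835. These runs reuse the arrays and the pattern that chose the gene, so their steadiness is a description and no independent support. Single genes changed side of the threshold as follows. TUBB with time under LacZ was lost with eBayes without trend and robust (adjusted p = 0.0762). TUBB2B under LacZ was lost with quantile normalization (0.0534), scaling (0.0508), no filter (0.0537) and all probe sets (0.0705). TUBB4B averaged over viruses was lost with quantile normalization (0.0535), all probe sets (0.0553) and eBayes without trend and robust (0.0842). With the sets of a gene averaged TUBB4B under GPI-PLD (-0.28, adjusted p = 0.0125) and TUBA1B averaged over viruses (-0.21, adjusted p = 0.0160) were gained. The cause was not tested.

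Tubulin genes other than TUBB2A called with time under LacZ numbered 2, and 1 with quantile or 75th percentile scaling, without a filter, with all probe sets or with eBayes without trend and robust, and 0 to 2 with single arrays left out. Under GPI-PLD they numbered 1, and 2 with averaged sets. Genes called in all at 6 h between viruses numbered 0, and 2 with eBayes without trend and robust; at 12 h they were 0, and 0 to 2 with single arrays left out. In the difference contrast 1 gene was called, and 0 with quantile normalization, scaling, no filter, the mean of probe sets, all probe sets or eBayes without trend and robust, 2 with 4 times the pseudocount or the 60th percentile filter, and 0 to 3 with single arrays left out. Nothing is read from the counts of the difference contrast for TUBB2A, which that contrast chose. The r of EIF3L fell to 0.72 with quantile normalization.

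Reversed values were all close to 0 and none was called. At 6 h between viruses they were TUBA1A 0.00045 (4 times the pseudocount), TUBA1C -0.015 and TUBB2B -1.57e-05 (scaling), and TUBB6 0.015 (array weights). With the mean of probe sets TUBA1C gave -0.045 at 12 h, -0.00619 averaged and -0.077 in the difference contrast, where it also gave -0.041 (quantile normalization) and -0.00207 (array weights). With time, TUBB3 gave -0.027 under LacZ (scaling) and TUBA4A -0.030 under GPI-PLD (quantile normalization). With single arrays left out, values between viruses that crossed 0 at 6 h ran from -0.13 to 0.11 (TUBA1A), -0.040 to 0.081 (TUBA1B), -0.039 to 0.079 (TUBA1C), -0.095 to 0.15 (TUBA4A), -0.0014 to 0.14 (TUBB), -0.065 to 0.11 (TUBB2B) and -0.25 to 0.097 (TUBB6). At 12 h they ran from -0.030 to 0.10 (TUBA1C) and -0.18 to 0.022 (TUBB3), and averaged from -0.010 to 0.057 (TUBA1C) and -0.027 to 0.075 (TUBB3). In the difference contrast they ran from -0.058 to 0.094 (TUBA1C) and -0.13 to 0.0069 (TUBB4B). With time they ran from -0.071 to 0.12 (TUBB3) and -0.32 to 0.029 (TUBB6) under LacZ, -0.10 to 0.18 (TUBA4A) under GPI-PLD, and averaged -0.087 to 0.034 (TUBA1A) and -0.066 to 0.11 (TUBB6). With 4 arrays against 4 an exact permutation test cannot go below 0.0286.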
